A study of Mus musculus with 24 samples.

Results

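The mitochondrial ribosomal protein genes, named Mrpl for proteins first assigned to the large subunit and Mrps for those of the small subunit, were followed in brown and white adipose tissue of mice on 3 diets. Members were all genes whose array probe carried a symbol starting with Mrpl or Mrps and a digit, which gave 76 genes among 19057 genes with a named probe. These 76 genes had 132 probes, and 33 of them had several, so the brightest probe over the 24 arrays stood for each gene. There were 48 Mrpl and 28 Mrps genes, and by the position of the protein in the ribosome 50 belong to the large and 26 to the small subunit, because the products of Mrps18a and Mrps30 sit in the large subunit despite their names.

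The animals were male C57Bl/6J mice. They ate either a low fat diet or one of a pair of high fat diets, 1 with corn oil and 1 with EPA/DHA, the long-chain omega-3 fatty acids eicosapentaenoic and docosahexaenoic acid. RNA of brown adipose tissue and of white adipose tissue was hybridised to Illumina bead arrays, with 4 arrays for each of the 6 combinations of tissue and diet. Age, the white fat depot and the length of feeding are not given in the sources used here. The mice of each group had been picked to represent it by body weight and plasma lipids, so the spread between arrays is that of selected animals.

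Mitochondria carry their own ribosomes, which translate the small set of inner-membrane proteins encoded by mitochondrial DNA, all of them core subunits of the respiratory chain and ATP synthase. Their ribosomal RNAs come from mitochondrial DNA, but every protein of the particle is encoded in the nucleus, made in the cytosol and imported. Brown adipocytes are packed with mitochondria and burn fuel through uncoupling protein 1 (Ucp1) to make heat, whereas white adipocytes store triglyceride and hold few mitochondria. By the prefix of the systematic protein name, 46 members were classed as having a bacterial homologue and 30 as specific to mitochondria. Mrps18a (mL66) and Mrps18b (mS40) thus fall in the second class, although Mrps18c (bS18m) falls in the first.

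The promoter stretches of 5 genes are printed because they belong to the members on which the results turn. Mrpl9, Mrpl47 and Mrps16 passed the test between the high-fat diets in white fat, Mrpl34 had the widest gap between tissues, and Mrps6 had a gap in the opposite direction. Each is the 250 bases before the first listed RefSeq start on GRCm38.p6, written 5′ to 3′ on the strand of the gene, and capitals mark a match to the NRF1 motif, GCGCA and GCGC with any 1 base between them, or to the ETS motif CCGGAAG on either strand. NRF1 and the ETS factor GABP are activators known from promoters of many nuclear genes for mitochondrial proteins. The positions are chr3:94443086-94443335 on the plus strand for Mrpl9, chr3:32736756-32737005 on the minus strand for Mrpl47, chr14:20393491-20393740 on the minus strand for Mrps16, chr8:71464676-71464925 on the plus strand for Mrpl34 and chr16:92058086-92058335 on the plus strand for Mrps6.
Mrpl9: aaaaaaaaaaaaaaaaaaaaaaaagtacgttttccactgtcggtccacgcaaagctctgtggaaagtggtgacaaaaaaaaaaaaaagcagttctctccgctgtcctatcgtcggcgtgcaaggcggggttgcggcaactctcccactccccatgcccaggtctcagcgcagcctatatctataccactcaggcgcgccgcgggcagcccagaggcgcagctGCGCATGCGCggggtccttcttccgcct
Mrpl47: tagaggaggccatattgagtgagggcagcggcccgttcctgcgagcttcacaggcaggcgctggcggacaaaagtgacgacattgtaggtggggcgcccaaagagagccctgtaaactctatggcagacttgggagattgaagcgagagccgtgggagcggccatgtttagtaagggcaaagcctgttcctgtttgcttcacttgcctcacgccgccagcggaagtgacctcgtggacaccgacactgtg
Mrps16: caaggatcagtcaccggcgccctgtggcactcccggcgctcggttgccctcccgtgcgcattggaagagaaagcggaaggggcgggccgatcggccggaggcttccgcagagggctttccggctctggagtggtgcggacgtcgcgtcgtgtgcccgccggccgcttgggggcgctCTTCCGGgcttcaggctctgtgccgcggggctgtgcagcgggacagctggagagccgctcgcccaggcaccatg
Mrpl34: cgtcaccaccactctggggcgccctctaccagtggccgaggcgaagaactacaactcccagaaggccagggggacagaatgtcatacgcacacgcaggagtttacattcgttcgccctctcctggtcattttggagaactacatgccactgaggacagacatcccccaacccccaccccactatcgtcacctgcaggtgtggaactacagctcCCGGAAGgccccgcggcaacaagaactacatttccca
Mrps6: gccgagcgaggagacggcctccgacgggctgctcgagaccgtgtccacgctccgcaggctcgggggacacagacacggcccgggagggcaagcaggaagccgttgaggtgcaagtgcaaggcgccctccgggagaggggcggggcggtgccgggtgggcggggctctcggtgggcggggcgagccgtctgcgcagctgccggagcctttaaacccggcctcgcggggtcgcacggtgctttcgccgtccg
Mrpl9 held an NRF1 match, Mrps16 and Mrpl34 each held an ETS match, and the stretches of Mrpl47 and Mrps6 held neither.

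RefSeq windows were found for 67 of the 76 members. In the whole window of 300 bases, which adds 50 bases after the start, the ETS motif was present in 37.3% of the members, against 15.2% of the 11430 tested genes with a window and 9.12% of all 27025 windows. The NRF1 motif was found in 19.4% of members, against 8.73% of tested genes and 4.78% of all windows. The YY1 motif AANATGGCG was held by 16.4% of members, 4.37% of tested genes and 2.51% of all windows. Most of its member matches needed the 50 bases after the start. In the 250 bases before the start it was held by 2.99% of members and 1.12% of all windows. The shares there were 25.4% and 7.05% for the ETS motif and 14.9% and 3.86% for the NRF1 motif. Over the whole window, at least 1 of these 3 motifs was held by 41 of the 67 members (61.2%), compared with 25.1% of tested genes. The E-box CACGTG, in 7.46% of members and 9.42% of tested genes, and the TATA motif TATAAA, in 5.97% and 9.69%, were not more common among members. Both strands were searched, and none of these motifs contains another. These shares describe letters in a window, and the median GC content was 58.3% in member windows and 59.3% in those of tested genes.

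All values are log2 expression values as deposited, over a table that ran from 6.95 to 14.79, so a difference of 1 is a 2-fold change. Ucp1 separated the tissue labels: its group means were 13.92 to 14.16 in brown fat and 7.35 to 8.19 in white fat. A total of 4 white-fat arrays stood apart by Ucp1, namely EPA/DHA replicate 2 at 10.63, corn-oil replicate 4 at 9.38, low-fat replicate 1 at 8.02 and EPA/DHA replicate 4 at 7.76, against a white-fat median of 7.19. In brown fat, low-fat replicate 2 had the lowest mean correlation with the other arrays of its tissue (0.965), and skeletal muscle markers averaged from 7.87 to 12.46 between arrays. After a filter at the 40th percentile, 74 members were tested in each tissue and 75 in at least 1. Mrpl32 was under the filter in both tissues, with values of 7.04 to 7.13 on all arrays, and Mrps14 (7.03 to 7.17) and Mrpl45, which tethers the ribosome to the inner membrane (6.97 to 7.24), lay close to the bottom of the scale throughout.

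The first question was how the genes of the mitochondrial ribosome differ between brown and white fat. On the low-fat diet 68 of 75 members were higher in brown fat and 1 was lower, where 20.4% of the 14264 genes tested were higher and 23.3% lower. The median member was 0.88 higher on the log2 scale in brown fat, against 0.01 for all genes. The corn-oil arrays gave 67 members higher and 1 lower (18.3% and 22.8% of all genes) with a median of 0.81, and the EPA/DHA arrays gave 67 and 1 (17.6% and 20.1%) with a median of 0.76. In bulk tissue, a different number of cells of one type cannot be told apart from a different amount of RNA per cell. Limma was fitted over all 24 arrays, with Benjamini-Hochberg adjustment over 29493 probes, and calls are at an adjusted p under 0.05.

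**Figure D1:**
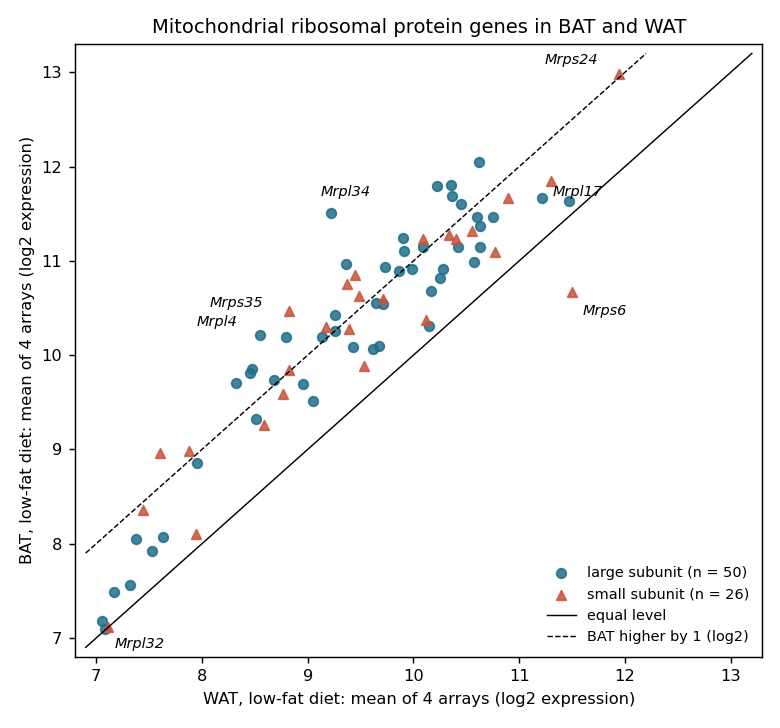
Mean log2 value of each of the 76 members in brown fat (vertical axis) against white fat (horizontal axis) on the low-fat diet, 4 arrays each, with lines at equality and at a difference of 1. Most points lie above the line of equality, 30 members were at least 2-fold higher in brown fat, and Mrps6 lies furthest below the line.

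The rise was spread over both subunits. Of the large-subunit members 46 of 49 were higher in brown fat on the low-fat diet (median 0.87), and of the small-subunit members 22 of 26 were higher and 1 lower (median 0.89). Members with a bacterial homologue were higher in 41 of 45 cases (median 0.93) and mitochondria-specific members in 27 of 30 (median 0.82). The differences between these classes were not tested. Across diets, 62 members were higher in brown fat on all 3 (82.7%, against 12.6% of all genes), and 17 by at least 2-fold on each (22.7%, against 2.52%). The 4 brown-fat arrays lay above the 4 white-fat arrays without overlap for 65, 64 and 67 members on low-fat, corn-oil and EPA/DHA (18.8%, 19.2% and 17.7% of all genes).

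Mrpl34, a small bacterial-type protein of the large subunit, had the widest gap. It read 9.35, 9.14, 9.30 and 9.08 in white fat and 11.43, 11.87, 11.34 and 11.38 in brown fat on the low-fat diet. Corn-oil arrays read 9.37, 9.32, 9.27 and 9.44 in white fat and 11.42, 11.32, 11.20 and 11.21 in brown fat. On EPA/DHA they were 9.43, 9.57, 9.51 and 9.53 against 11.69, 11.63, 11.55 and 11.60. Every brown-fat array was therefore above every white-fat array. The difference was 2.28, 1.94 and 2.11 on the 3 diets in that order (SE 0.09), or 4.87-, 3.83- and 4.31-fold, with adjusted p of 1.08e-13, 8.92e-13 and 5.54e-13.

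Next on the low-fat diet came Mrpl4, a core protein of the large subunit. It read 8.68, 8.54, 8.50 and 8.48 in white and 10.09, 10.51, 10.13 and 10.13 in brown fat, a difference of 1.67 ± 0.10 (SE). Mrps35, a small-subunit protein, was 1.64 ± 0.10 higher on low-fat, 1.86 on corn oil and 1.44 on EPA/DHA, or 3.12-, 3.62- and 2.72-fold. Further members of the large subunit followed: Mrpl15 by 1.61, Mrpl12, the stalk protein that binds translation factors, by 1.58, Mrpl38 by 1.45 and Mrpl30 by 1.43. Mrps16, which is mutated in a human respiratory chain deficiency, was 1.41 ± 0.08 higher. The groups of these 7 genes did not overlap. On the corn-oil diet Mrpl3, which lies near the peptidyl transferase centre, and Mrpl47, at the polypeptide exit tunnel, joined them with differences of 1.5 and 1.59. Averaging all probes of a gene lowered some of these: Mrpl15 to 0.97 and Mrpl38 to 0.76 on low-fat, and Mrpl3 to 0.92 and Mrpl47 to 0.54 on corn oil, all still called.

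Mrps6, a bacterial-type protein of the small subunit, was the only member called lower in brown fat, and it was so on each diet. White-fat arrays on low-fat read 11.37, 11.71, 11.63 and 11.27, and brown-fat arrays 10.59, 10.90, 10.37 and 10.83. With corn oil the values were 11.60, 11.55, 11.98 and 11.65 against 10.54, 10.90, 10.74 and 10.90, and with EPA/DHA 10.86, 11.36, 11.58 and 11.26 against 10.60, 10.27, 10.53 and 10.30. No brown-fat group overlapped its white-fat group, and this was the 1 member below without overlap on each diet (21.8%, 22.9% and 21% of all genes). The differences were -0.82, -0.93 and -0.84 (SE 0.15), or 1.77-, 1.90- and 1.79-fold lower, with adjusted p of 1.21e-04, 3.30e-05 and 1.21e-04.

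Members without a call in any diet were Mrps14, near the bottom of the scale, and Mrpl33, a small protein of the large subunit. Mrpl33 read 11.49, 11.63, 11.58 and 11.17 in white and 11.74, 11.45, 11.61 and 11.73 in brown fat on low-fat, so the groups overlapped. Its differences were 0.16, 0.23 and 0.10 (SE 0.10; adjusted p = 0.242, 0.106 and 0.518). The other 10 tested members were called higher on 1 or 2 of the diets. Among them Mrpl17, Mrpl20 and Mrpl54 were called only on low-fat and Mrpl49 only on corn oil. Mrpl17 differed by 0.45 on low-fat (adjusted p = 0.00422), by -0.01 on corn oil (0.943) and by 0.20 on EPA/DHA (0.214).

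A second look came from the other probes. In the tissue comparison 30 members had 47 further tested probes, and 45, 44 and 45 of these pointed the same way as the brightest probe on low-fat, corn-oil and EPA/DHA. The brightest probe was called for 27 of the 30 on each diet, a further probe was called in the same direction for 22, 23 and 23 of them, and none was called in the opposite direction. Signs differed in Mrpl1 and Mrpl20 on each diet and in Mrps10 on corn oil. On low-fat the dim probe of Mrpl20 differed by -0.02 and the dimmest of Mrpl1 by -0.04, against 0.57 and 0.74 for their brightest probes.

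The other genes of mitochondrial gene expression were counted in the same fit. On the low-fat diet brown fat was higher for 4 of 4 ribosomal proteins named otherwise (median 0.47), 8 of 11 translation factors, with 1 lower (0.44), 16 of 17 mitochondrial aminoacyl-tRNA synthetases (0.51), 11 of 16 genes of ribosome assembly and rRNA modification (0.35), and 11 of 13 of mitochondrial transcription and mRNA handling (0.77). Tufm, the elongation factor that brings aminoacyl-tRNA to the mitochondrial ribosome, was 1.44, 1.42 and 1.39 higher on the 3 diets, and Tfam, which packages and transcribes mitochondrial DNA, 0.68, 0.81 and 0.81. Nuclear subunits of oxidative phosphorylation were higher for 71 of 75 and lower for 2 (median 1.28), and markers of mitochondrial content for 10 of 11 (1.03). Cytosolic ribosomal proteins ran the other way, with 8 of 60 higher and 38 lower (median -0.36). Of the regulators 5 of 8 were higher (0.32), among them the coactivators Ppargc1a (3.34, 2.65 and 2.26) and Ppargc1b (3.02, 3.34 and 2.67). Brown adipocyte markers were higher for 9 of 9 (2.64), white adipocyte markers lower for 6 of 6 (-2.11) and macrophage markers lower for 9 of 11 (-1.64). Skeletal muscle markers were higher for 8 of 11 (2.59), with group means of 10.16 to 11.22 in brown and 7.43 to 7.46 in white fat over the 3 diets. Liver markers were lower for 9 of 9 (-3.35), with array means of 7.15 to 8.38 in brown and 9.05 to 11.84 in white fat over the 3 diets. The part of cell makeup in the member values was not tested.

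**Figure D2:**
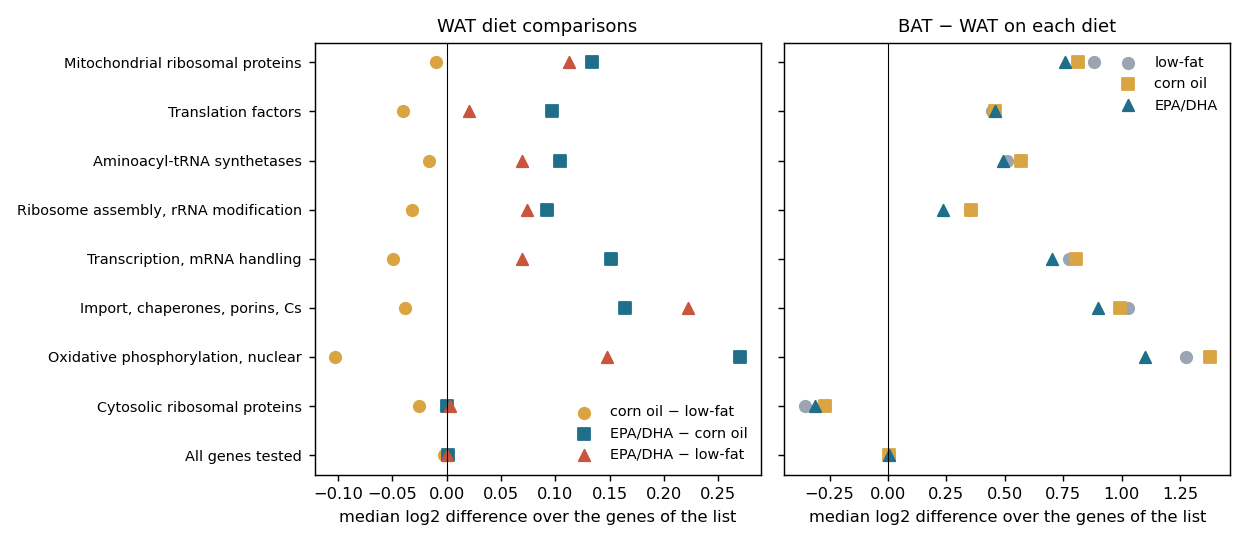
Median log2 difference of the members, of 7 other lists and of all genes tested, for the 3 diet comparisons in white fat and the brown minus white comparison on each diet. In white fat the medians of members (0.13) and oxidative phosphorylation subunits (0.27) lie above 0 for EPA/DHA minus corn oil, whereas cytosolic ribosomal proteins lie at 0; between tissues the cytosolic ribosomal proteins lie below 0.

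The diet comparison with calls in the upward direction was EPA/DHA against corn oil in white fat, which sets 2 high-fat diets of different fat against each other. A total of 3 members were higher on EPA/DHA and 0 lower, 4.05% and 0% of the 74 tested, where 1.18% of 13351 genes were higher and 1.17% lower. The median member was 0.13 higher, against 0.002 for all genes, with 62 members positive and 12 negative, and 34 members (45.9%) had an unadjusted p under 0.05, against 17.6% of all genes. The 4 EPA/DHA arrays lay above the 4 corn-oil arrays without overlap for 18 members (24.3%, against 5.29% of all genes) and below for 0 (4.95%). In this comparison 28 members had 44 further tested probes, and 31 of these pointed the same way as the brightest probe. The brightest probe was called for 2 of the 28, and a further probe was called in the same direction for 0 of them.

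Mrpl9, a large-subunit protein with a bacterial homologue, read 8.99, 9.06, 8.94 and 8.90 on corn oil and 9.33, 9.54, 9.21 and 9.31 on EPA/DHA. The groups did not overlap, and EPA/DHA replicate 2, the array with the most Ucp1, was the highest. The difference was 0.37 ± 0.06 (SE), or 1.30-fold, with an adjusted p of 0.0182. A second, dimmer probe of Mrpl9 differed by 0.20 (adjusted p = 0.251).

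Mrpl47 read 8.15, 8.30, 8.24 and 8.03 on corn oil and 8.65, 8.72, 8.65 and 8.57 on EPA/DHA, again without overlap. It rose by 0.47 ± 0.08, or 1.38-fold (adjusted p = 0.0182), and another probe differed by 0.13, which did not pass (0.173). The mean of its probes rose by 0.15 (adjusted p = 0.0259). Mrps16 read 9.08, 9.0, 9.21 and 9.39 on corn oil and 9.38, 9.62, 9.59 and 9.61 on EPA/DHA. Here corn-oil replicate 4 was just above EPA/DHA replicate 1, so the groups overlapped, and the rise was 0.38 ± 0.08, or 1.30-fold (adjusted p = 0.0427).

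These 3 calls changed with the arrays included. With 1 array left out, Mrpl9 and Mrpl47 were each called in 7 of 8 fits and Mrps16 in 2. Without the 4 white-fat arrays that stood apart by Ucp1 the differences were 0.27 for Mrpl9, 0.42 for Mrpl47 and 0.39 for Mrps16, and none passed (adjusted p = 0.122, 0.162 and 0.146), in a fit with fewer arrays. Mrpl9 lost its call without corn-oil replicate 3 (adjusted p = 0.0508), Mrpl47 without EPA/DHA replicate 3 (0.0524), and Mrps16 kept its call only without corn-oil replicate 4 or EPA/DHA replicate 1. The count of members called was 1 without corn-oil replicate 3 and 5 without corn-oil replicate 1.

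Several members lay just short of the threshold. Mrpl49 read 9.93, 9.98, 10.02 and 10.06 on corn oil and 10.29, 10.13, 10.23 and 10.29 on EPA/DHA, without overlap, a difference of 0.24 ± 0.05 (adjusted p = 0.0559). Mrps34, a small-subunit protein, read 10.79, 10.82, 10.77 and 10.75 against 11.15, 10.85, 11.10 and 11.20, also without overlap, a difference of 0.29 ± 0.07 (0.0566). For Mrpl3, Mrps31 and Mrps35 the differences were 0.35, 0.34 and 0.43 (0.0586, 0.0586 and 0.0597). At the other end, Mrps6 was 0.43 lower on EPA/DHA (difference -0.43 ± 0.15, adjusted p = 0.208), with corn-oil values of 11.55 to 11.98 and EPA/DHA values of 10.86 to 11.58 that overlapped.

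**Figure D3:**
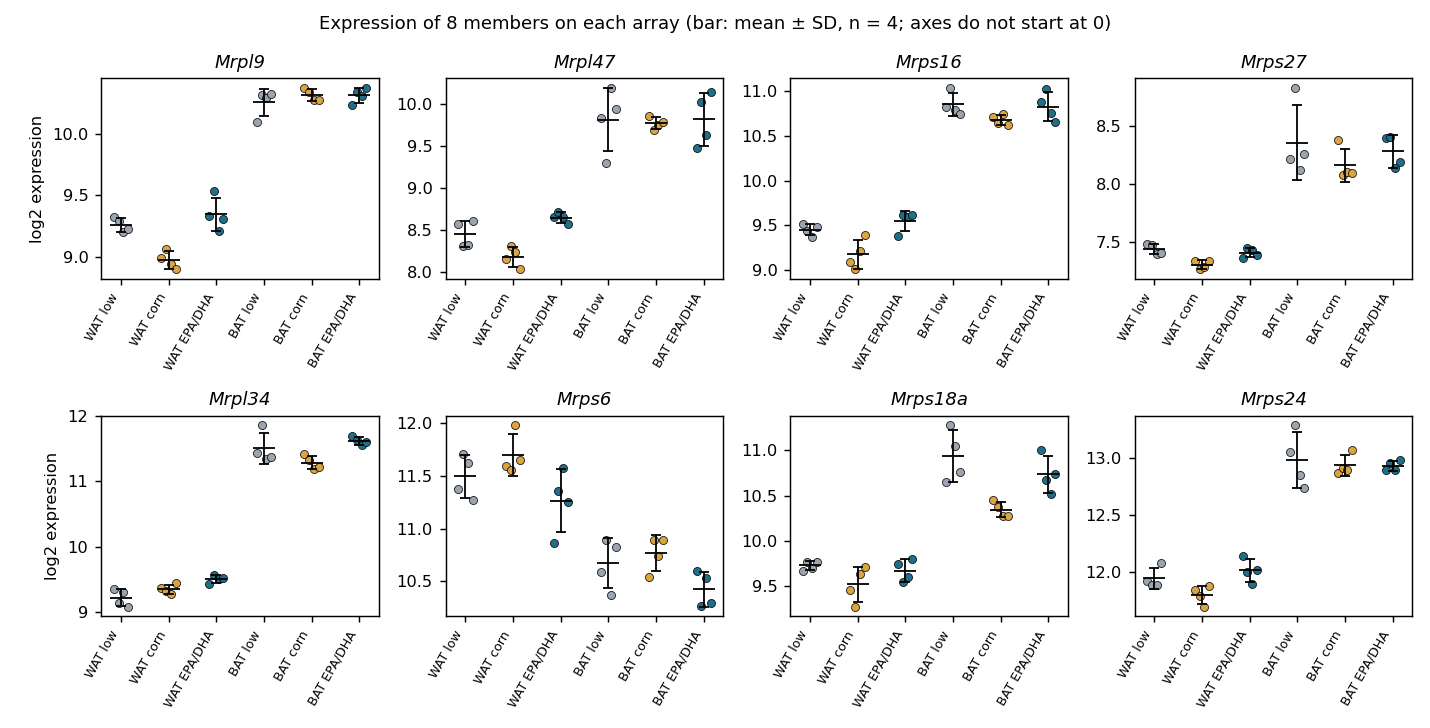
Log2 values of 8 members on every array by tissue and diet, with the mean and SD of the 4 arrays of each group; the vertical axes do not start at 0. Mrpl9, Mrpl47 and Mrps16 have their lowest white-fat values on corn oil, Mrpl34 shows the widest gap between tissues, Mrps6 is the member that is lower in brown fat, and Mrps18a is lowest on corn oil in brown fat.

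The small upward difference was seen in both subunits: 39 large-subunit members were positive and 9 negative (median 0.14, 2 called), and 23 small-subunit members were positive and 3 negative (median 0.13, 1 called). All 3 called members have a bacterial homologue, a class with a median of 0.15, and none of the 29 mitochondria-specific members was called (median 0.11). Of the members named above as just short of the threshold, Mrpl49, Mrps34, Mrps31 and Mrps35 are mitochondria-specific and Mrpl3 has a bacterial homologue. The difference between these classes was not tested. Among the other lists, 11 of 74 oxidative phosphorylation subunits rose (median 0.27), led by the complex III core protein Uqcrc2 with 0.64 (adjusted p = 0.00431) and with the complex IV subunit Cox4i1 at 0.33 (0.0182) and the complex I subunit Ndufs7 at 0.53 (0.0370). A single gene rose in each of 5 lists: Gfm2, a factor that recycles mitochondrial ribosomes, by 0.26 (adjusted p = 0.0182), the isoleucyl-tRNA synthetase Iars2 by 0.40 (0.0386), the GTPase Noa1 by 0.29 (0.0341), the mRNA-binding protein Slirp by 0.35 (0.0449) and the small-subunit protein Ptcd3 by 0.26 (0.0221). Their lists had medians of 0.10, 0.10, 0.09, 0.15 and 0.14. None of 58 cytosolic ribosomal proteins passed (median -0.003), and none of 8 regulators did, Ppargc1a at 0.38 (adjusted p = 0.136) and Ppargc1b at 0.57 (0.158) included.

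Markers of other cells differed between the same arrays. Of 9 brown adipocyte markers 7 were positive on EPA/DHA and 0 were called (median 0.16), and their mean ran from 7.75 to 8.63 on corn oil and from 8.10 to 9.44 on EPA/DHA. Cidea averaged 8.28 on corn oil and 9.97 on EPA/DHA, and Ucp1 7.70 and 8.19, whereas Dio2 (7.11 and 7.19), Elovl3 (7.16 and 7.09) and Ppara (7.17 and 7.22) stayed near the bottom of the scale on both. Cox7a1 and Cox8b are in this list and among the oxidative phosphorylation subunits. Liver markers were lower on EPA/DHA for all 9 tested, 0 called (median -1.03) Their levels in white fat were uneven: on corn oil Mup2 averaged 14.05, Apoa2 12.93, Ttr 12.48 and Apoa1 11.31, whereas albumin and Fgb averaged 7.09 and 7.12. Macrophage markers were lower for 7 of 10 with 0 called (median -0.23). The mean of the endothelial markers was 9.28 to 9.43 on corn oil and 9.13 to 9.22 on EPA/DHA, without overlap, and 6 of 8 were lower with 0 called (median -0.13). White adipocyte markers averaged 10.61 to 10.93 on corn oil and 10.29 to 10.66 on EPA/DHA, with 4 of 6 positive and 0 called (median 0.05), and Mest among them differed by -1.78. The part of macrophages, endothelial cells and white adipocytes in the member values was not tested. With the liver list as a covariate the median member difference was 0.12, and Mrps16 differed by 0.34 in place of 0.38 and was no longer called (adjusted p = 0.0873). Without the 4 arrays that stood apart by Ucp1 the median was 0.11, with 60 members positive and 14 negative.

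**Figure D4:**
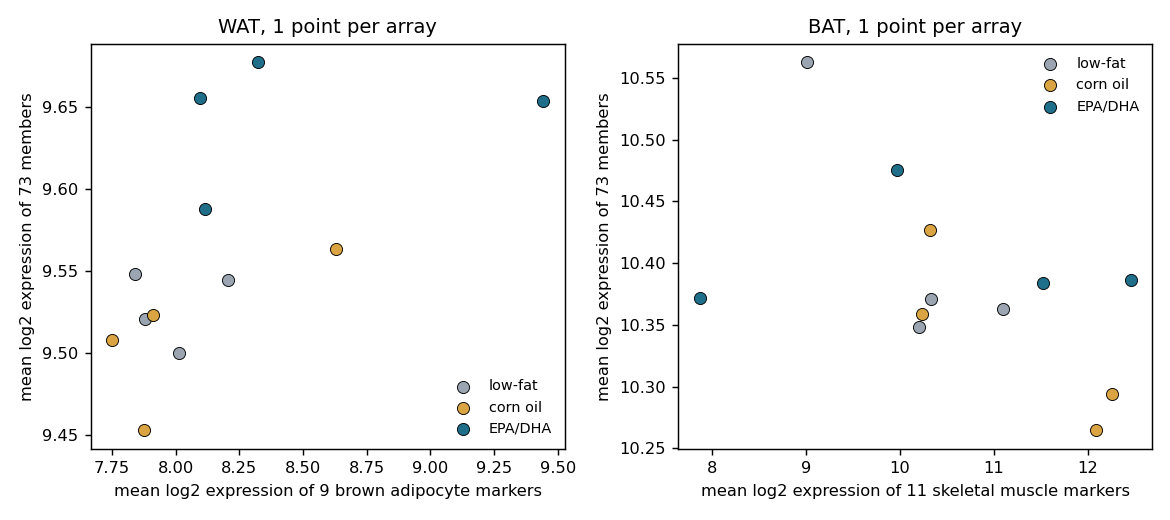
Mean log2 value of the 73 members tested in both tissues on each array, against the mean of the brown adipocyte markers in white fat and against the mean of the skeletal muscle markers in brown fat, with points marked by diet. In white fat the EPA/DHA arrays lie at 9.59 to 9.68 and the corn-oil arrays at 9.45 to 9.56, and in brown fat low-fat replicate 2 lies highest at 10.56.

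Corn oil against low-fat in white fat addresses the high-fat diet without EPA/DHA, and it shares its corn-oil arrays with the comparison above, so the values of both are given side by side and are not independent. Of the 74 members 2 fell and 0 rose, where 1.82% of genes fell and 2.05% rose, and 18 members (24.3%) had an unadjusted p under 0.05, against 19.7% of all genes. Mrpl9 read 9.32, 9.29, 9.21 and 9.22 on low-fat against 8.90 to 9.06 on corn oil, without overlap, and fell by 0.29 on the log2 scale (SE 0.06, adjusted p = 0.0369). Mrps27, a pentatricopeptide-repeat protein of the small subunit, read 7.48, 7.48, 7.40 and 7.40 on low-fat and 7.34, 7.26, 7.28 and 7.33 on corn oil, without overlap, and fell by 0.13 (SE 0.03, adjusted p = 0.0418). Its values lie close to the bottom of the scale. The median member stood at -0.01, with 34 positive and 40 negative, and took either sign (-0.03 to 0.01) when 1 array was left out. Mrpl9 lost its call on leaving out any 1 of 7 of the 8 arrays in turn and kept it only without corn-oil replicate 2, and Mrps27 kept its call only without low-fat replicate 3.

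The members that followed went both ways. Mrpl17 read 11.07, 11.22, 11.28 and 11.31 on low-fat and 11.54, 11.28, 11.60 and 11.60 on corn oil, which overlapped, a difference of 0.29 ± 0.07 (adjusted p = 0.0620). Mrps33 differed by 0.25 ± 0.06 (0.0671), Mrpl47 by -0.27 ± 0.08 (0.101) and Mrps16 by -0.28 (0.105). Mrpl47 had no overlap, with low-fat values of 8.31 to 8.60 above corn-oil values of 8.03 to 8.30. In all, 5 members lay below without overlap (Mrpl9, Mrps27, Mrpl47, Mrps24 and Mrps15, against 5.86% of all genes) and 2 above (Mrpl43 and Mrps23, against 6.54%). Oxidative phosphorylation subunits had 1 of 74 higher and 2 lower, with 14 positive and 60 negative differences (median -0.10). Between the same arrays the macrophage markers averaged 9.16 to 9.42 on corn oil and 8.91 to 9.15 on low-fat (6 of 10 positive, 0 called) and the mast cell markers 7.64 to 7.83 and 7.86 to 8.20 (4 of 5 negative, 1 called), both without overlap, and their part in the member values was not tested.

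EPA/DHA against low-fat shares arrays with both comparisons in white fat. No member was called, where 0.03% of 13351 genes were, but 24 members (32.4%) had an unadjusted p under 0.05, against 9.06% of all genes, and the median difference was 0.11 with 64 positive and 10 negative. The EPA/DHA arrays lay above the low-fat arrays without overlap for 12 members (16.2%, against 2.2% of all genes) and below for 0 (2.46%). Mrpl34 read 9.08 to 9.35 on low-fat and 9.43 to 9.57 on EPA/DHA, a difference of 0.29 ± 0.06 (adjusted p = 0.240). Mrps2, Mrpl21, Mrpl22, whose protein lines the exit tunnel, and Mrpl46 differed by 0.25, 0.24, 0.20 and 0.19 (adjusted p = 0.262, 0.251, 0.386 and 0.272).

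Placed in order of group means, EPA/DHA was highest in white fat for 55 of 74 members, low-fat for 8 and corn oil for 11. The lowest mean was on corn oil for 39 members, on low-fat for 32 and on EPA/DHA for 3. The members above both other diets without overlap numbered 4: Mrpl3, Mrpl21, Mrpl46 and Mrpl50 (5.41%, against 0.614% of all genes). Mrpl3 read 8.75, 8.84, 8.73 and 8.86 on low-fat, 8.84, 8.46, 8.71 and 8.61 on corn oil and 8.92, 9.03, 8.89 and 9.18 on EPA/DHA, so its low-fat and corn-oil values overlapped and those of EPA/DHA stood above. Mrpl46 read 9.18 to 9.36, 9.24 to 9.38 and 9.39 to 9.51 in the same order. Apart from the 5 calls given above, no difference between diets in white fat passed the test for any member.

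**Figure D5:**
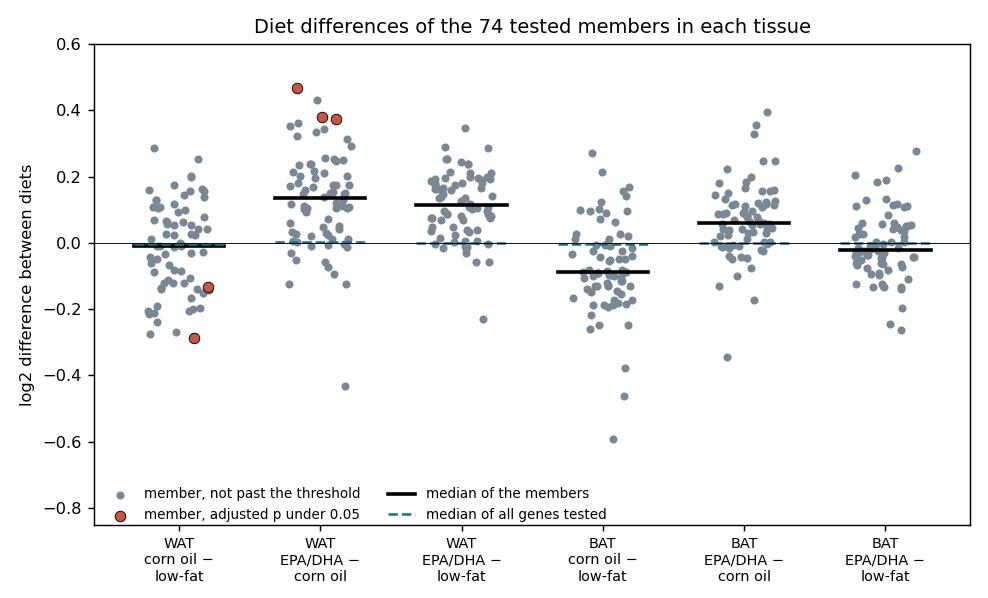
Log2 differences of the 74 members tested in each tissue for the 3 diet comparisons, with called members in red and the median of each comparison marked. In white fat the members called are 2 below 0 for corn oil minus low-fat and 3 above 0 for EPA/DHA minus corn oil, and in brown fat no member is called.

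In brown fat no member passed in any diet comparison, where 0%, 0% and 0.00746% of 13402 genes did for corn oil minus low-fat, EPA/DHA minus corn oil and EPA/DHA minus low-fat. Members with an unadjusted p under 0.05 numbered 7, 6 and 1 (9.46%, 8.11% and 1.35%), against 9.1%, 4.98% and 4.77% of all genes. The medians were -0.09, 0.06 and -0.02, with 18, 56 and 31 members positive. Corn oil had the lowest mean for 48 of 74 members and low-fat the highest for 39.

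Mrps18a, a large-subunit protein, had the smallest p. It read 10.65, 11.28, 11.05 and 10.76 on low-fat, 10.45, 10.38, 10.28 and 10.27 on corn oil and 11.01, 10.67, 10.52 and 10.74 on EPA/DHA. The corn-oil values lay below both other groups without overlap. The differences were -0.59 ± 0.14 for corn oil minus low-fat (adjusted p = 0.263) and 0.39 ± 0.14 for EPA/DHA minus corn oil (0.999). In a single fit over all 24 arrays the first of these passed (adjusted p = 0.0307).

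Mrpl36 and Mrps2 also lay below low-fat on corn oil without overlap, by -0.38 ± 0.10 and -0.46 ± 0.14 (adjusted p = 0.325 and 0.406), as did Mrps16 and Mrpl4, which makes 5 members (2.89% of all genes) against 0 above (2.26%). For Mrpl36, a small bacterial-type protein, the low-fat values were 10.99 to 11.36 and the corn-oil values 10.64 to 10.99, nearly touching. Mrpl34 read 11.20 to 11.42 on corn oil and 11.55 to 11.69 on EPA/DHA, a difference of 0.33 ± 0.10 (adjusted p = 0.999), and with Mrps18a was 1 of 2 members above without overlap (2.16% of all genes), with 0 below (1.54%). Between EPA/DHA and low-fat no member's groups were free of overlap, where 1.18% of all genes lay above and 1.45% below. Mrpl13 had the smallest p there, with a difference of 0.21 (adjusted p = 0.971).

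The brown-fat arrays differed in other respects along these contrasts. Skeletal muscle markers were higher on corn oil than on low-fat for 11 of 11 (median 1.05) and lower on EPA/DHA than on corn oil for 11 of 11 (median -0.71), with 0 called in either. The mean of the brown adipocyte markers was 11.10 to 11.36 on low-fat and 10.70 to 10.96 on corn oil, without overlap, with 6 of 9 lower and 0 called (median -0.25). White adipocyte markers averaged 8.29 to 8.67 on low-fat and 8.67 to 9.25 on corn oil, also without overlap, with 4 of 5 higher and 0 called (median 0.30), and leptin averaged 8.74 and 11.17. On EPA/DHA white adipocyte markers averaged 8.44 to 8.63, below corn oil without overlap. The part of brown and white adipocytes in the member values was not tested. With the skeletal muscle list as a covariate the member median for corn oil minus low-fat was -0.06 and for EPA/DHA minus corn oil 0.04. Low-fat replicate 2 decided the first of these: without it the median was -0.01, with 29 positive and 45 negative, in place of -0.09. Without it the median for EPA/DHA minus low-fat turned from -0.02 to 0.05, so that median has no settled sign, and without corn-oil replicate 1 the median for EPA/DHA minus corn oil was 0.09. Mrpl50 shows that array, with low-fat values of 11.23, 9.70, 11.33 and 11.39 for replicates 1 to 4.

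Whether a diet difference itself differed between the tissues was tested as an interaction over the 24 arrays. No member of 75 passed in the interaction for corn oil minus low-fat, EPA/DHA minus corn oil or EPA/DHA minus low-fat, where 0.652%, 0.252% and 0.00701% of 14264 genes did, and 9, 7 and 10 members of 75 had an unadjusted p under 0.05, against 13.1%, 8.45% and 6.44% of all genes. The medians of brown minus white were -0.06, -0.04 and -0.13, the last with 12 positive and 63 negative. Without brown-fat low-fat replicate 2 the first and last were -0.01 and -0.07, and without brown-fat corn-oil replicate 1 the second was -0.01. Leaving out 1 array gave -0.09 to -0.01, -0.08 to -0.01 and -0.15 to -0.07. Mrpl9 came closest. Its brown-fat values were 10.10 to 10.32 on low-fat, 10.28 to 10.38 on corn oil and 10.24 to 10.38 on EPA/DHA and overlapped between all diets. Its interaction was 0.35 for corn oil minus low-fat (adjusted p = 0.0678) and -0.38 for EPA/DHA minus corn oil (0.0809), and the latter passed without white-fat EPA/DHA replicate 3 (0.0424). Mrps2 followed with -0.57 for corn oil minus low-fat (adjusted p = 0.126) and Mrps35 with -0.41 for EPA/DHA minus corn oil (0.396).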

How the data were processed

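The values were the authors' deposited log2 expression values, 1 column per array, made with lumi 2.18.0 per the submitters' processing notes. The sorted values of the arrays differed by at most 0.00694, as quantile normalisation leaves them, so a change in total signal is not visible. Gene symbols came from the platform annotation: 34885 of 45281 probes had 1 symbol, 18 had several and 10378 none. All 76 members matched a RefSeq gene by ID.

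Within each tissue, probes whose mean was over the 40th percentile (7.11 in both) were kept, 27168 per tissue. Diet comparisons were fitted with limma 3.58.1 (R 4.3.3) on the 12 arrays of a tissue, and tissue comparisons and interactions on all 24, with Benjamini-Hochberg adjustment over all probes kept and a threshold of 0.05. SEs are limma's moderated ones. Counts over all genes use the brightest probe of each gene.

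The members and the lists were chosen with earlier results of these data known. Members past the threshold were named, or the 5 with the smallest p where fewer passed, and the 8 widest tissue differences. Levels were not ranked between genes, because probes differ in brightness. The number of arrays limits the precision, and p-values measure only the spread between these arrays. The extraction text names skeletal muscle while the tissue labels say adipose, and whether brown-fat and white-fat arrays of 1 number share a mouse is not stated. Alternatives were other filters, the mean of all probes, array weights, a trended prior, centring, a replicate block, marker covariates and left-out arrays. The scripts were tested on simulated data.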

Additional observations from a re-analysis of the deposited data

Results flagged for a closer look

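Each group of 4 arrays was searched for 1 array far from the other 3. The search covered 43 members, the mean of the members, the means of the brown adipocyte, skeletal muscle and liver markers, and Ucp1. The other marker lists were not searched. Of 288 such groups 28 held one, where chance gives about 1 in 20, and genes on an array are not independent.

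Brown-fat low-fat replicate 2 was the array concerned in 7 of these cases. It was highest for Mrpl17 (12.17), Mrpl22 (10.45), Mrpl4 (10.51), Mrps23 (11.08), Mrps34 (11.86) and the mean over the members (10.56), and lowest for Mrpl50 (9.70), whose other 3 values were 11.23 to 11.39. Brown-fat EPA/DHA replicate 1 was highest for Mrpl38 (11.96), Mrpl43 (10.86), the member mean (10.48) and the mean of the brown adipocyte markers (11.24). In brown fat on corn oil, replicate 1 was highest for Mrpl18 (9.82) and Mrps27 (8.38), and replicate 2 for the liver markers (7.94). Mrpl9 on brown-fat low-fat replicate 1 was the lowest of its group at 10.10.

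In white fat, corn-oil replicate 4 was lowest for Mrpl50 (9.86) and highest for Mrps23 (9.62) and for Ucp1 (9.38). EPA/DHA replicate 2 stood apart for Mrpl44 (8.39), for Ucp1 (10.63) and for the brown adipocyte markers (9.44). EPA/DHA replicate 1 was lowest for Mrps16 (9.38) and Mrps23 (9.32). On low-fat, Mrpl44 on replicate 2 (8.63), Mrpl13 and Mrpl42 on replicate 4 (10.65 and 10.20) and Ucp1 on replicate 1 (8.02) stood apart, and the skeletal muscle markers were lowest on corn-oil replicate 1 (7.40).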

How the results depend on the processing

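Among the members named for each comparison, no called difference changed direction under the alternatives that were run. The directions of the other called members were not followed individually. Between tissues the count of members called was 69 to 72 on low-fat, 65 to 69 on corn oil and 67 to 69 on EPA/DHA over 7 alternatives each, and 68 to 70, 64 to 68 and 66 to 68 with 1 array left out. The mean of all probes of a gene lowered the median differences to 0.74, 0.68 and 0.60. It also moved differences without a call: Mrpl49 to 0.09 for EPA/DHA minus corn oil, Mrps33 to 0.12 and Mrpl47 to -0.07 for corn oil minus low-fat, Mrpl21 to 0.11 for EPA/DHA minus low-fat, all in white fat, and the Mrpl9 interactions to 0.21 and -0.23. For corn oil minus low-fat in white fat the count of 2 became 1 in a fit over all 24 arrays (Mrpl9), 0 with no filter, 1 with a trended prior (Mrps27), 0 without the 4 arrays that stood apart by Ucp1 and 1 without the 2 highest of these (Mrpl9), an alternative chosen after seeing the data. Leaving out 1 array gave 0 to 3. For EPA/DHA minus corn oil the count of 3 became 5 in a fit over all 24 arrays, 8 with a filter at the 60th percentile, 6 with the mean of all probes, 5 with a trended prior and 0 without the 4 arrays, and leaving out 1 array gave 1 to 5. The median difference stayed between 0.11 and 0.15 under the alternatives and between 0.10 and 0.16 with 1 array left out. In brown fat, corn oil minus low-fat went from 0 to 1 in a fit over all 24 arrays (Mrps18a). The interaction for EPA/DHA minus corn oil gave 0 to 1 with 1 array left out. The causes of these changes were not tested.

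The main fits did not pair the samples by replicate number. In white fat same-numbered arrays of different diets had a mean correlation of 0.17 of their deviations, with 7 of 12 pairs over 0.1. Different numbers gave -0.06 with 12 of 36, so same-numbered white-fat arrays were more alike on average. In brown fat the means were 0.03 (5 of 12) for same and -0.01 (13 of 36) for different numbers. Between tissues they were -0.05 (0 of 12) and 0.01 (7 of 36). With the replicate block the counts were 1 for corn oil minus low-fat in white fat (Mrpl9) and 2 for EPA/DHA minus corn oil (Mrpl9 and Mrps31, with Mrpl47 at an adjusted p of 0.0516 and Mrps16 at 0.0577), 69, 67 and 67 between tissues, and 0 elsewhere. With 4 arrays a group, differences of about 0.1 in single members, the size of most diet differences, were not resolved.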

Other observations

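The closest genomic neighbours of a few members were read after the values were seen. Ndufb5, a subunit of respiratory complex I, lies next to Mrpl47 on the opposite strand in RefSeq (GRCm38.p6). It was higher in brown fat by 2.20, 2.39 and 1.87 on low-fat, corn oil and EPA/DHA. In white fat it differed by -0.22 for corn oil minus low-fat (adjusted p = 0.631) and by 0.50 ± 0.17 (SE) for EPA/DHA minus corn oil (adjusted p = 0.192), beside -0.27 and 0.47 for Mrpl47. Slc5a3, the sodium-coupled myo-inositol transporter, overlaps Mrps6 at its start. Its probe read 7.08 to 7.42 on all arrays, near the bottom of the scale, and differed between brown and white fat by -0.17, -0.15 and -0.14 (adjusted p = 0.00555, 0.0127 and 0.0220). Abhd8, read as a neighbour of Mrpl34, did not differ between the tissues by the test. Its differences were 0.10, -0.01 and -0.03 (adjusted p = 0.182, 0.955 and 0.769), beside 2.28, 1.94 and 2.11 for Mrpl34. The probe of Abhd8 also read near the bottom of the scale.

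Outside the members, Qrsl1, part of the complex that makes glutaminyl-tRNA in mitochondria, was called in white fat for EPA/DHA minus low-fat, at 0.36 ± 0.05 (adjusted p = 0.0464), a comparison in which no member was called.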
